A study of Mus musculus with 52 samples.

Results

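Combination-treated tumors were compared with untreated tumors across all genes. The 16 tumors, 8 in each group, are those that the sample labels place in the untreated and combination groups of one deposited table, and they are 16 of the 52 samples of the series. KPC tumors were grown under the skin of male C57BL/6NHsd mice, aged 8 to 10 weeks by the methods, while the reporting summary gives a wider range. The cells were of 1 line, derived from a pancreatic tumor of a mouse whose alleles include Trp53 LSL.R172H/+ and Pdx1-Cre. Every tumor thus carries mutant R172H p53, and all share the mutations of that line. Mice in the combination group were given ADU-S100, a STING agonist, once into the tumor (2 µg on day 0, about 10 days after the cells were injected) and the agonistic anti-LTβR antibody 4H8 into the peritoneum (100 µg, 4 times until day 10). Mice in the untreated group received neither agent. All tumors were collected on day 14, and each library comes from 1 tumor, without pooling. The descriptions of the study differ on whether these tumors come from 1 experiment or from 2 that were combined, and no label gives a batch.

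LTβR is a receptor of the tumor necrosis factor family that is carried by stromal, endothelial and myeloid cells. Its ligands are made by lymphocytes, it signals through canonical and noncanonical NF-κB, and it is needed for lymph nodes to form and for high endothelial venules, the vessels through which lymphocytes enter lymph nodes, to be maintained. STING senses cyclic dinucleotides in the cytosol and drives type I interferon and inflammatory genes. Aggregates of T and B cells with such vessels outside lymphoid organs are called tertiary lymphoid structures, and the study asked whether activating both pathways induces them in tumors that lack them.

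The values are normalized counts, that is, estimated reads per gene divided by a size factor for each library. Depth, as whole reads recovered from the deposited values, lay between 12762453 and 15591986 in the 16 libraries. No mitochondrial gene is in the table, so the mitochondrial share could not be used as a sign of RNA quality. On the first principal component of the 16 tumors, which held 35.8% of the variance, combination tumors 6 and 7 lay at the end (scores of 84.25 and 71.98), and neither this component nor the second, with 22.6%, separated the groups without overlap. The summed level of 16 skeletal muscle genes ran from 9190.0 to 191582 normalized counts in untreated tumors and from 10982 to 564685 in combination tumors, and it was at least 156060.0 in 3 of 8 untreated (2, 3 and 5) and at least 151333 in 5 of 8 combination tumors, with combination tumors 6 and 7 the highest. The summed level of 13 skin keratinocyte genes ran from 3031 to 47650.0 in untreated and from 1981 to 68128 in combination tumors. With limma on the 16 tumors none of the 16 muscle, 13 keratinocyte, 14 adipocyte and 7 red blood cell genes tested passed an adjusted p of 0.05, and at an unadjusted p under 0.05 the counts were 0, 0, 1 and 1. Of these genes, edgeR on recovered reads passed 0, 0, 0 and 4, and DESeq2 0, 0, 0 and 3. Those that passed were red blood cell genes, of which edgeR and DESeq2 each tested 5. With all 4 groups in one limma fit 5 red blood cell genes and 1 adipocyte gene rose, 1 keratinocyte gene rose without combination tumors 6 and 7, and 1 adipocyte gene rose with the replicate block. Leaving out 1 tumor at a time passed at most 1 muscle and 1 adipocyte gene. Red blood cell genes summed to 121610.0 in combination tumor 7 and to 91248 in combination tumor 8, against 8832 to 31024 in the other 14. In bulk tissue, more cells of a type and more RNA per cell cannot be told apart.

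**Figure D1:**
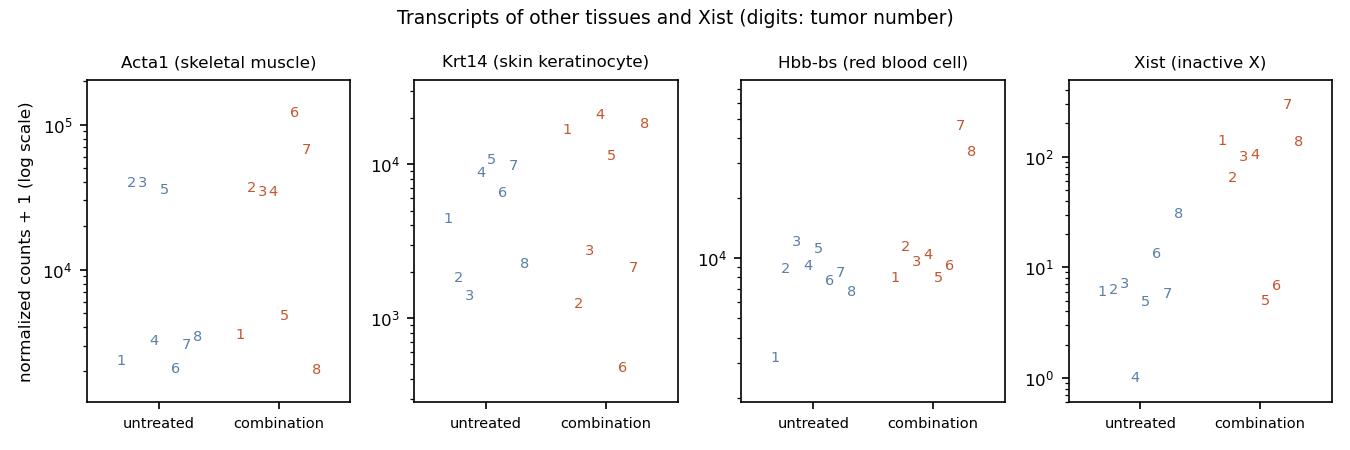
Normalized counts plus 1, on a log axis, of Acta1 (skeletal muscle), Krt14 (skin keratinocytes), Hbb-bs (red blood cells) and Xist in 8 untreated and 8 combination tumors, each tumor drawn as its number. Acta1 and Krt14 spread widely within both groups, with 2 and 4 combination tumors above and 1 and 2 below every untreated tumor, Hbb-bs stands high in combination tumors 7 and 8, and Xist in 6 of 8 combination tumors exceeds the whole untreated group.

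The labelled tissue was checked against defining markers. Keratins 8, 18 and 19, which mark simple epithelium and pancreatic ductal carcinoma, were high in every tumor, with Krt19 at 2826 to 5302 normalized counts (median 3905) in untreated and 1579.8 to 3974 (median 2299.7) in combination tumors. Epcam, a cell surface marker of epithelia, was low, at 16.3 to 155 normalized counts (median 65.2) in untreated and 58.9 to 194 (median 75.2) in combination tumors, and so was Cdh1, which encodes E-cadherin, at 207 to 617 normalized counts (median 436) in untreated and 126 to 759 (median 345) in combination tumors. The highest value of both in the combination group was in tumor 4, which had the most keratinocyte transcripts, and neither passed the test between the groups (adjusted p = 0.31 and 0.62). Ptprc, which encodes the leukocyte marker CD45, was present in every tumor.

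Of 27525 genes that were listed 16909 passed the filter on low values. Genes higher in combination tumors at an adjusted p under 0.05 and at least 2-fold made up 5.16% of those tested (873 genes), and genes lower by the same rule 0.952% (161 genes). At the adjusted p alone the balance turned, with 19.6% of genes higher (3310) and 23.6% lower (3995). Changes are given as log2 fold changes ± SE, from limma, with p-values adjusted by the Benjamini-Hochberg method over all genes tested. Among those past the adjusted p, the median log2 fold change was 0.68 for genes that rose and -0.32 for genes that fell, and 26.4% of the former but 4.03% of the latter changed at least 2-fold. The median untreated level was 131 normalized counts among genes that rose and 789.6 among genes that fell. At least 4-fold changes were found in 92 genes that rose and 33 that fell. Over all genes tested the median log2 fold change was -0.016, and it lay between -0.043 and 0.048 under the other scalings and filters. Each scaling brings the libraries to a common level, so a shift of all genes together cannot be seen in these values. When libraries were instead scaled to equal totals, 3504 genes were higher and 3489 lower at the adjusted p alone.

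**Figure D2:**
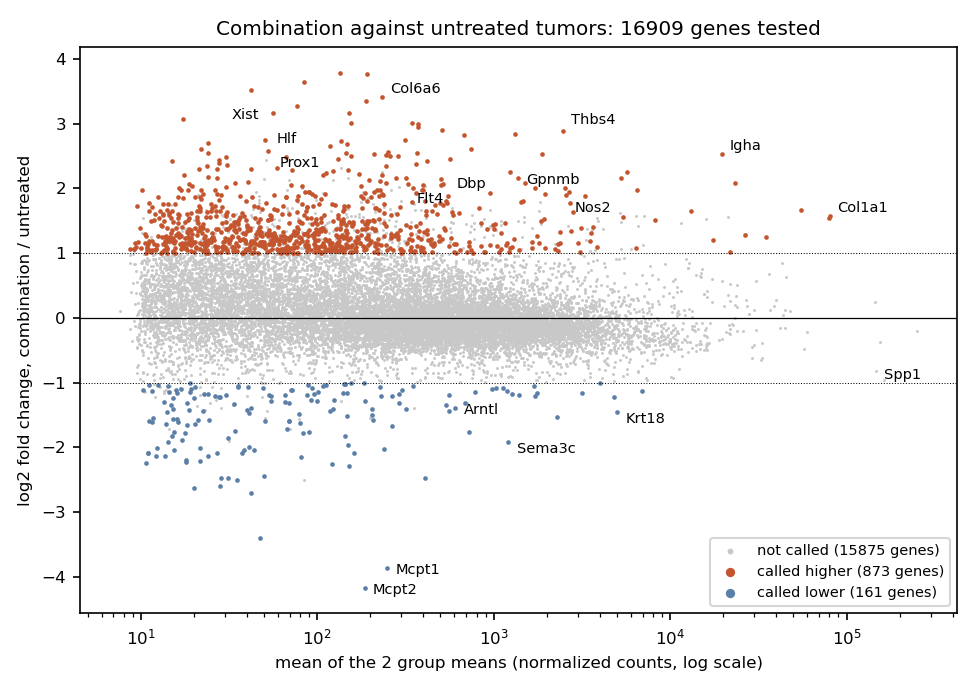
Log2 fold change of combination over untreated tumors (vertical axis) against the mean of both group means in normalized counts (horizontal axis, log scale), 1 point per gene tested, with dotted lines at a 2-fold change. The 873 genes called higher spread over low, middle and high levels, with Col1a1 at the high end. The 161 called lower include Mcpt1 and Mcpt2 at the lower edge.

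Tumor by tumor, all 8 combination tumors were above all 8 untreated tumors for 4.64% of genes tested (784), and all 8 were below for 6.04% (1022). The 30 genes named first are the 15 called higher and the 15 called lower with the smallest adjusted p among those without overlap. Of the 15 that rose, 7 are endothelial genes described below (Erg, Ecscr, Egfl7, Tie1, Cldn5, Flt4 and Prox1), and Dbp and Tef, factors of the clock output, and Nos2 are also described below. Ushbp1 rose on the log2 scale by 1.53 ± 0.15. Mdga1, which encodes a cell adhesion molecule, had 74.3 to 154 normalized counts (median 95.0) in untreated and 244 to 391 (median 343) in combination tumors (log2 fold change 1.69 ± 0.15, adjusted p = 4.8e-06). Olfml2b, which encodes a secreted matrix protein, rose on the log2 scale by 1.13 ± 0.11, and Dnaaf3, an assembly factor for ciliary dynein, by 1.10 ± 0.11. Gm266, a gene model of unknown role, showed the steepest separation of these, with 3.01 to 8.14 normalized counts (median 4.83) in untreated and 26.7 to 64.1 (median 30.4) in combination tumors (log2 fold change 2.61 ± 0.25, adjusted p = 5e-06).

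The 15 lower genes were of several kinds. Arntl, the clock activator, is described below with the clock and Mcpt1 with the mast cells. Chmp4c, a subunit of the ESCRT-III complex that acts in the last step of cell division, had 342 to 538 normalized counts (median 385) in untreated and 97.2 to 197 (median 108) in combination tumors (log2 fold change -1.67 ± 0.15, adjusted p = 4.8e-06). Thsd4, which encodes a microfibril-associated matrix protein, had 694 to 1392 normalized counts (median 1110.5) in untreated and 202 to 512 (median 336) in combination tumors (log2 fold change -1.76 ± 0.17, adjusted p = 5.6e-06). Lad1 encodes ladinin, an anchoring filament protein of epithelial basement membrane, and had 3679.9 to 5358 normalized counts (median 4279) in untreated and 1447 to 2672 (median 1982) in combination tumors (log2 fold change -1.15 ± 0.12, adjusted p = 9.4e-06). No combination tumor reached an untreated tumor for any of these genes. Of the axon guidance ligands that also act on vessels and epithelia, Slit2 fell (log2 fold change -1.10 ± 0.12, adjusted p = 1.3e-05) and Sema3c fell further, from 1974 to 484 in median normalized counts (log2 fold change -1.92 ± 0.22, adjusted p = 1.7e-05). Slurp1, a secreted protein of the Ly6 family known from skin, fell by more than 4-fold (log2 fold change -2.03 ± 0.24). The rest were Macrod2, Arhgap22, Ube2ql1, Tpd52l1, Tcp11x2 and the models Gm29680 and Gm29695, with log2 fold changes from -1.07 ± 0.12 for Macrod2 to -2.45 ± 0.29 for Tcp11x2.

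Among called genes with a group mean of at least 100 normalized counts, with variable segments left out, the 10 largest rises were those of Col6a6, Xist, Thbs4, Igha, Mfap4, Actc1, Scart1, Myh3, Jchain and Iglc1. Col6a6, which encodes a chain of the beaded-filament collagen VI, rose the most, with 8.03 to 116 normalized counts (median 41.6) in untreated and 112 to 833 (median 377) in combination tumors (log2 fold change 3.41 ± 0.50, adjusted p = 8.5e-05). Thbs4, the matrix glycoprotein thrombospondin-4, had 198 to 1516 normalized counts (median 369.7) in untreated and 1457 to 6159 (median 4639.7) in combination tumors (log2 fold change 2.89 ± 0.48, adjusted p = 0.00019), and its 3 highest untreated tumors, 2, 3 and 5, are the 3 with the highest muscle sums. Mfap4, an elastic fiber protein, had 328 to 915 normalized counts (median 517) in untreated and 1353 to 6886 (median 2913) in combination tumors (log2 fold change 2.53 ± 0.28, adjusted p = 1.3e-05). The groups did not overlap for Mfap4, and for Col6a6 and Thbs4 7 of 8 combination tumors exceeded the whole untreated group. Scart1, which encodes a scavenger receptor of γδ T cells, had 9.16 to 38.3 normalized counts (median 16.6) in untreated and 54.6 to 219 (median 106) in combination tumors without overlap (log2 fold change 2.48 ± 0.34, adjusted p = 5.1e-05). Actc1 and Myh3, cardiac actin and embryonic myosin, also reached the top 10 (log2 fold change 2.53 ± 0.90, adjusted p = 0.032 and 2.28 ± 0.89, adjusted p = 0.047), with combination tumor 6 at 1946 and 813. Without combination tumors 6 and 7, which hold the most muscle transcripts, neither passed (log2 fold change 1.7, adjusted p = 0.12 for Actc1 and 1.6, adjusted p = 0.18 for Myh3).

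At the other end the 10 largest falls included 4 mast cell proteases, described below, beside Sema3c and Slurp1. Syt8, a synaptotagmin, had 294 to 1246 normalized counts (median 684) in untreated and 38.1 to 279 (median 100.7) in combination tumors (log2 fold change -2.47 ± 0.38, adjusted p = 0.00011). Psca, prostate stem cell antigen, had 90.6 to 937 normalized counts (median 102) in untreated and 8.53 to 54.0 (median 39.9) in combination tumors (log2 fold change -2.26 ± 0.50, adjusted p = 0.0019), where untreated tumor 8 alone was at 937 and the other 7 lay between 90.6 and 145. Cldn6, a claudin of embryonic epithelium, had 129 to 538 normalized counts (median 225) in untreated and 30.0 to 103 (median 43.8) in combination tumors (log2 fold change -2.08 ± 0.33, adjusted p = 0.00015). In each of these genes all 8 combination tumors lay below all 8 untreated tumors. Has1, a hyaluronan synthase chosen after its values were seen, fell from 281 to 97.9 in median normalized counts (log2 fold change -1.51 ± 0.24, adjusted p = 0.00015).

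The genes of other cell types were followed with 42 lists of genes that stand for cell types, pathways and cell machinery, some of which share members. They hold 821 genes, of which 31 did not pass the filter on low values. Of the genes in any list 274 rose and 124 fell at the adjusted p, and 89 of the 873 genes called higher and 19 of the 161 called lower were in a list. Below, rose and fell mean past the adjusted p of 0.05 alone, for which the shares over all genes were 19.6% and 23.6%.

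**Figure D3:**
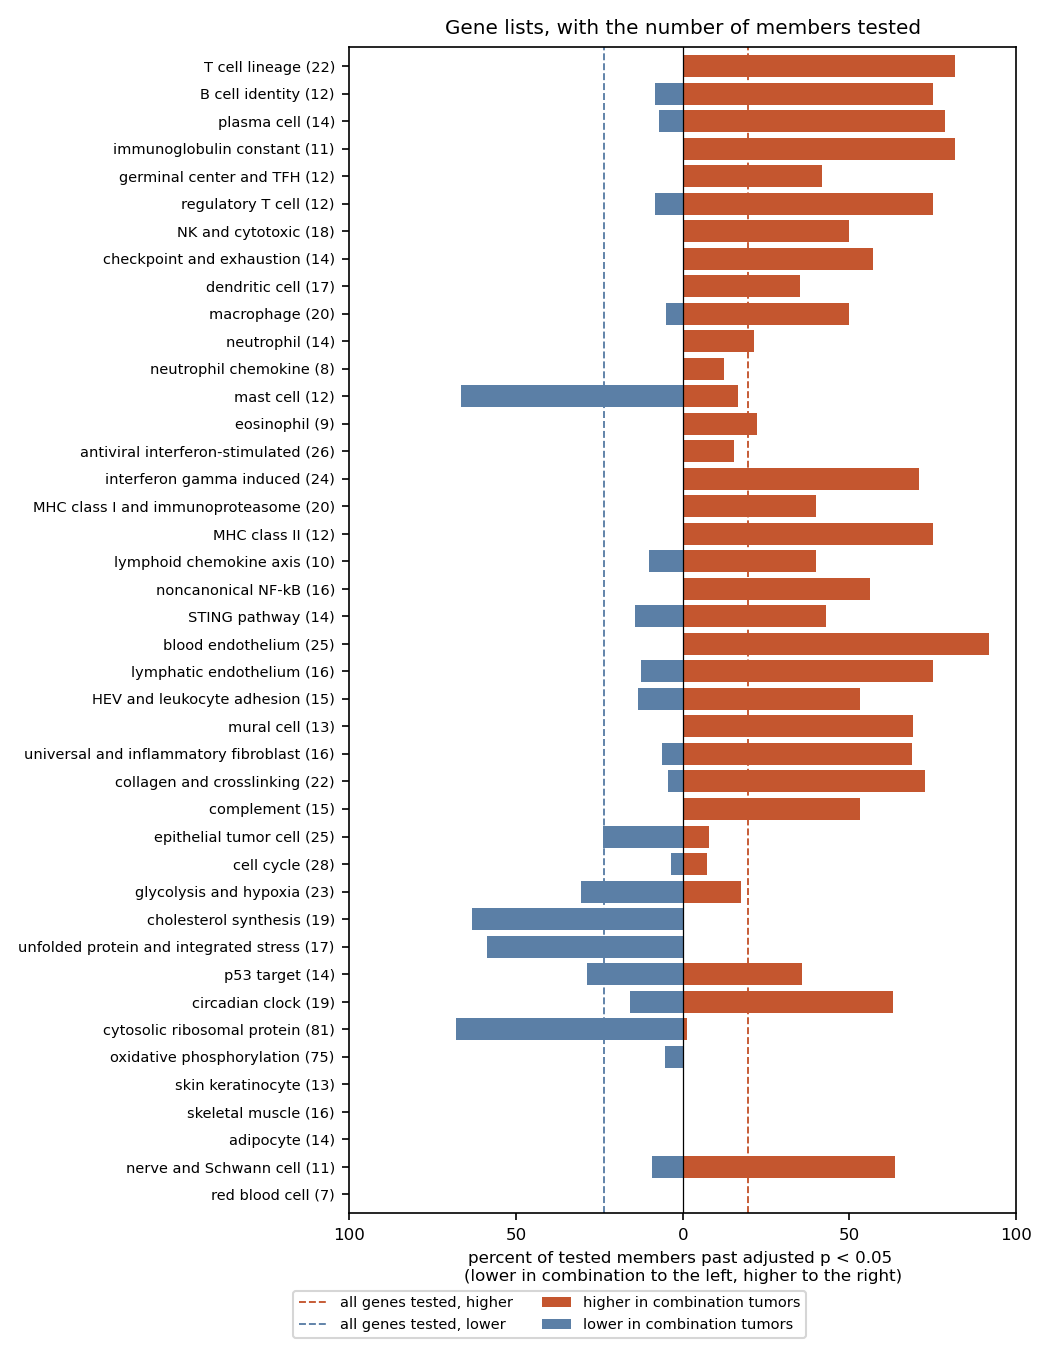
Percent of the tested members of each of 42 gene lists (number tested in brackets) past an adjusted p of 0.05, higher in combination tumors to the right and lower to the left, with dashed lines for all genes tested (19.6% and 23.6%). The longest bars to the right are those of blood endothelium, T cells and immunoglobulin constant genes, and to the left those of ribosomal proteins, mast cells and cholesterol synthesis.

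Blood endothelial genes rose in combination tumors as a group, 23 of 25 tested, and 16 of the 25 were above without overlap, against 4.64% of all genes tested. The median log2 fold change of the list was 0.90. Erg, an ETS factor that maintains endothelial identity, had 40.9 to 61.1 normalized counts (median 46.5) in untreated and 106 to 170.4 (median 134) in combination tumors (log2 fold change 1.46 ± 0.13, adjusted p = 4.8e-06). Cldn5, the claudin of endothelial tight junctions, had 60.6 to 100.6 normalized counts (median 68.5) in untreated and 145 to 262 (median 203) in combination tumors (log2 fold change 1.48 ± 0.14, adjusted p = 4.8e-06). All combination tumors exceeded all untreated tumors in both. Ecscr, Egfl7 and Tie1, an endothelial chemotaxis regulator, a secreted factor of endothelium and a receptor tyrosine kinase, rose on the log2 scale by 1.32 ± 0.12, 1.43 ± 0.13 and 1.26 ± 0.12, each also without overlap. Cdh5, which encodes VE-cadherin, rose from 351 to 677 in median normalized counts (log2 fold change 0.90 ± 0.08, adjusted p = 4.8e-06), and Pecam1, which encodes CD31, was at 554 to 817 in untreated and at 867 to 1229 in combination tumors (log2 fold change 0.71 ± 0.09, adjusted p = 2.7e-05). Flt1 and Sox7 did not pass. Flt1 encodes VEGF receptor 1 and was the most abundant of the list, with 4884 to 8768 normalized counts (median 6805) in untreated and 4276 to 6929 (median 5968) in combination tumors (adjusted p = 0.28). Between 23 and 24 of the 25 rose over the settings, with single tumors left out included.

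Lymphatic endothelial genes rose in 12 of 16 cases and fell in 2, with a median log2 fold change of 1.12. Prox1 (ENSMUSG00000010175, chromosome 1, 190118035 to 190170714, GRCm38), the homeobox factor that sets lymphatic identity, had 24.3 to 68.0 normalized counts (median 36.5) in untreated and 132 to 246 (median 175) in combination tumors (log2 fold change 2.23 ± 0.21, adjusted p = 5e-06). Flt4 (ENSMUSG00000020357, chromosome 11, 49609263 to 49652739), which encodes VEGF receptor 3, had 74.97 to 192 normalized counts (median 114) in untreated and 381 to 717 (median 519.6) in combination tumors (log2 fold change 2.07 ± 0.19, adjusted p = 4.8e-06). Every combination tumor had more than 1.5 times the highest untreated value in both genes. Lyve1, a hyaluronan receptor of lymphatic vessels and of some macrophages, had 65.1 to 265 normalized counts (median 74.4) in untreated and 129.8 to 397 (median 246) in combination tumors, and only 3 combination tumors were above untreated tumor 3, the highest of its group (log2 fold change 1.37 ± 0.29, adjusted p = 0.0014). Ackr2, a scavenger receptor for inflammatory chemokines, rose on the log2 scale by 1.71 ± 0.21. The chemokine gene Ccl21a, which lymphatic vessels and lymph node stroma make and which has near-identical copies that could share its reads, rose on the log2 scale by 1.93 ± 0.27. Nr2f2 and Foxc2, transcription factors that also act outside lymphatics, fell instead (-0.49 ± 0.09, adjusted p = 0.00058 and -0.32 ± 0.11, adjusted p = 0.029), and Sema3a and Sema3d did not pass (log2 fold change 0.07 ± 0.11 and -0.16 ± 0.23). Foxc2 and Nr2f2 were named after their values were seen, and Foxc2 lost its call in some settings.

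Genes of high endothelial venules and leukocyte adhesion were mixed, 8 of 15 rising and 2 falling. Icam1 and Vcam1, which encode ligands for leukocyte integrins, rose. Icam1 had 270.5 to 466 normalized counts (median 387) in untreated and 521 to 1196 (median 825) in combination tumors without overlap (log2 fold change 1.15 ± 0.16, adjusted p = 5.5e-05), and Vcam1 had 844 to 1778 normalized counts (median 1025) in untreated and 1599 to 3249 (median 2470.1) in combination tumors (log2 fold change 1.16 ± 0.15, adjusted p = 4e-05). The 2 that fell were Podxl, which encodes podocalyxin, a sialomucin of venules and podocytes that epithelial tumors also make, and Jam2, a junctional adhesion molecule. Podxl had 2259 to 2895 normalized counts (median 2658) in untreated and 1098 to 1667 (median 1263) in combination tumors (log2 fold change -1.0 ± 0.08, adjusted p = 1.8e-06) and Jam2 3644 to 4539 normalized counts (median 4062) in untreated and 1744 to 3099.6 (median 2685) in combination tumors (log2 fold change -0.67 ± 0.11, adjusted p = 0.00015), both without overlap. Chst2 and Gcnt1, enzymes that build the sulfated, branched glycans of venules, did not pass (log2 fold change 0.18 ± 0.10 and -0.07 ± 0.08). Glycam1, a sialomucin of high endothelial venules that was chosen after its values were seen, was near the detection limit and did not pass the filter, with 0 to 5.03 normalized counts (median 1.45) in untreated and 4.74 to 16.6 (median 9.72) in combination tumors. Without the filter it was higher (log2 fold change 2.05 ± 0.40, adjusted p = 0.00098), and 7 of 8 combination tumors exceeded the whole untreated group.

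Mural cell genes rose in 9 of 13 cases. Rgs5, a pericyte gene, had 422 to 753 normalized counts (median 612) in untreated and 786 to 1733 (median 984) in combination tumors without overlap (log2 fold change 0.82 ± 0.14, adjusted p = 0.00026), and the smooth muscle actin gene Acta2 rose by 0.83 ± 0.15. Ndufa4l2 and Notch3, also enriched in pericytes, rose on the log2 scale by 0.80 ± 0.18 and 0.54 ± 0.14. Tagln and Des did not pass, and Des, which skeletal muscle also makes, ran from 356 to 5298 normalized counts (median 744) in untreated and from 379 to 11308 (median 3937) in combination tumors. The count lay between 5 and 9 over the settings.

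**Figure D4:**
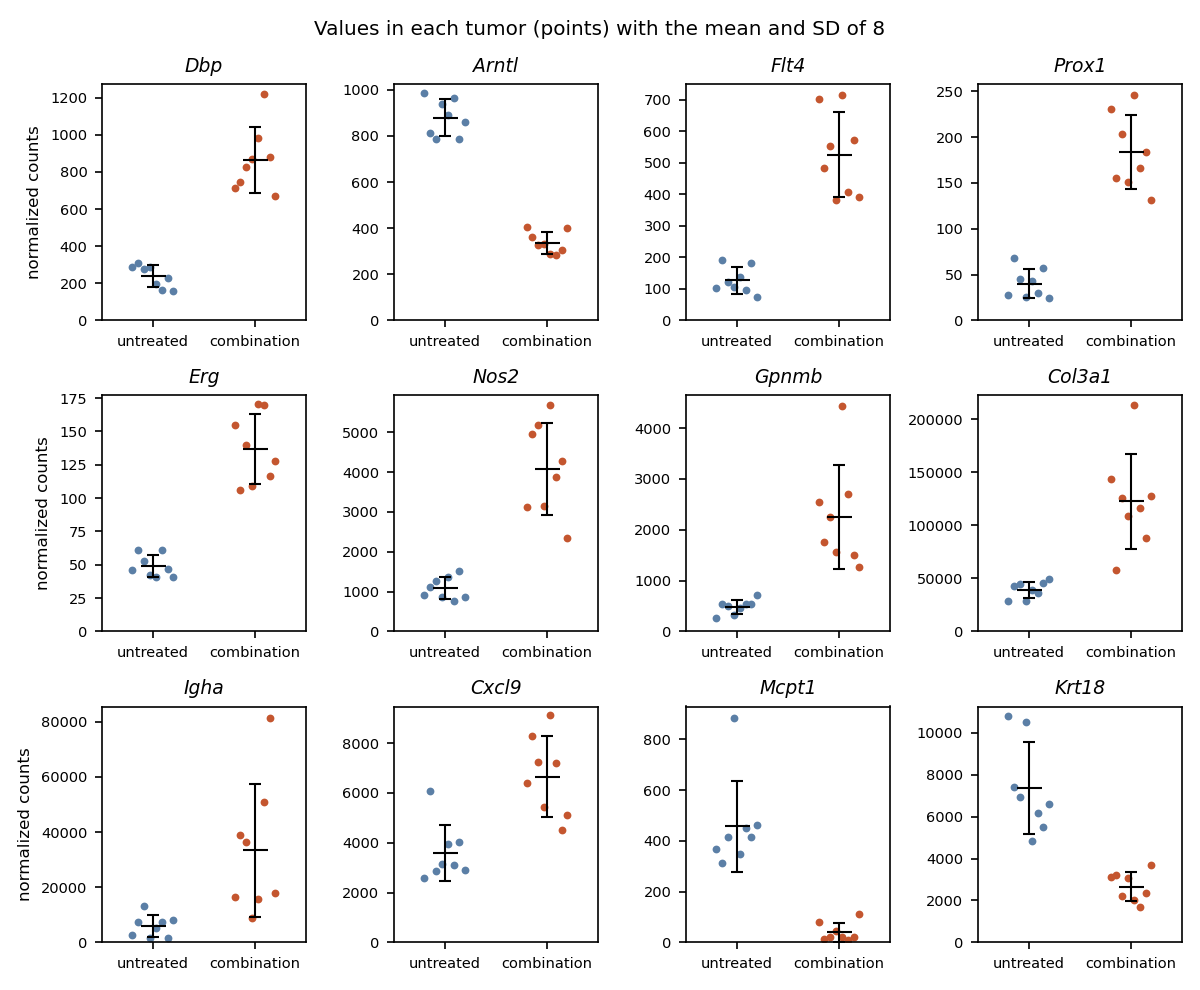
Normalized counts of 12 genes in each of 8 untreated and 8 combination tumors (points), with the mean and SD of each group, on linear axes from 0. Dbp, Flt4, Prox1, Erg, Nos2, Gpnmb and Col3a1 are higher and Arntl, Mcpt1 and Krt18 lower without overlap, while Igha and Cxcl9 are higher with overlap.

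Fibroblast and matrix genes were higher as well. Of 16 fibroblast genes 11 rose and 1, Has1, fell (-1.51 ± 0.24), and of 22 collagen and crosslinking genes 16 rose. Col3a1, the fibrillar collagen III gene, had 28908 to 49012 normalized counts (median 40517) in untreated and 58060.0 to 212970.0 (median 120910.0) in combination tumors (log2 fold change 1.58 ± 0.21, adjusted p = 4e-05). Col1a1 and Col1a2, the chains of collagen I, rose on the log2 scale by 1.54 ± 0.21 and 1.66 ± 0.21, and at a median of 116750.0 normalized counts Col1a1 was among the most abundant transcripts of combination tumors. Combination tumor 5 had the highest and combination tumor 2 the lowest Col3a1 of their group, and combination tumor 2 was still above every untreated tumor. Sparc, a collagen-binding matrix protein, rose on the log2 scale by 1.25 ± 0.16. Fn1, the fibronectin gene and the most abundant member of the list, did not pass, with 194110.0 to 339200.0 normalized counts (median 288360.0) in untreated and 168750.0 to 284740.0 (median 241160.0) in combination tumors (log2 fold change -0.20 ± 0.18, adjusted p = 0.37), nor did Tnc, the tenascin-C gene (0.17 ± 0.23). Plod2, a collagen lysyl hydroxylase chosen after its values were seen, was the 1 member that fell (log2 fold change -0.26 ± 0.10, adjusted p = 0.045), and it lost its call in some settings.

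Dpt, the dermatopontin gene of universal fibroblasts, had 541 to 1692 normalized counts (median 1126) in untreated and 2618 to 7827 (median 3956) in combination tumors (log2 fold change 1.95 ± 0.26, adjusted p = 4e-05). Dcn and Lum, small proteoglycans that bind collagen, rose on the log2 scale by 1.52 ± 0.21 and 1.64 ± 0.25, Col15a1 by 1.09 ± 0.15 and Pdgfra, the receptor that marks fibroblasts, by 0.90 ± 0.16. Ly6a and Ly6c1, which fibroblasts, endothelium and leukocytes all carry, did not pass (log2 fold change 0.21 ± 0.14 and 0.08 ± 0.15). Complement genes rose in 8 of 15 cases with a median of 0.85. The first component proteases C1s1 and C1ra rose without overlap, C1s1 with 1239.8 to 2994 normalized counts (median 2082) in untreated and 4144 to 7579 (median 4954) in combination tumors (log2 fold change 1.40 ± 0.17, adjusted p = 2.3e-05) and C1ra by 1.07 ± 0.12. Serping1, their inhibitor, rose by 0.91 ± 0.14, and C3, the component on which the pathways meet, had 2926 to 15193 normalized counts (median 6341) in untreated and 9927 to 26709 (median 20908) in combination tumors (log2 fold change 1.65 ± 0.31, adjusted p = 0.00061). C4b did not pass (log2 fold change 0.38 ± 0.18).

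Of 11 nerve and Schwann cell genes 7 rose. Sox10, the transcription factor of Schwann cells, had 3.01 to 14.4 normalized counts (median 5.70) in untreated and 13.3 to 96.2 (median 49.0) in combination tumors (log2 fold change 2.44 ± 0.39, adjusted p = 0.00015). Mbp, a myelin gene, rose on the log2 scale by 0.92 ± 0.17. S100b, which Schwann cells and other cell types make, went the other way, with 159 to 612 normalized counts (median 293) in untreated and 72.7 to 159 (median 95.7) in combination tumors and no overlap (log2 fold change -1.57 ± 0.24, adjusted p = 0.00012). Cnp and Prx did not pass.

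T cell genes rose in 18 of 22 cases, with a median log2 fold change of 0.84 and between 16 and 18 rising over all settings. Il7r, the receptor for interleukin 7, had 144 to 224 normalized counts (median 191) in untreated and 309.8 to 512 (median 394) in combination tumors (log2 fold change 1.06 ± 0.12, adjusted p = 1.3e-05). Cd28, the costimulatory receptor, had 29.2 to 73.9 normalized counts (median 47.4) in untreated and 102 to 177 (median 117) in combination tumors (log2 fold change 1.36 ± 0.17, adjusted p = 2.9e-05). The groups did not overlap in either gene. Cd247, the zeta chain of the T cell receptor complex, rose on the log2 scale by 0.85 ± 0.14, Cd3e by 1.01 ± 0.20, Cd3d by 0.78 ± 0.20 and Cd3g by 0.60 ± 0.19, the last not in every setting. Tcf7, the factor of naive and stem-like T cells, did not pass (log2 fold change -0.15 ± 0.07, adjusted p = 0.086). Ptprc itself rose less than most of these genes (log2 fold change 0.59 ± 0.09, adjusted p = 0.00013).

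Regulatory T cell genes were higher too, 9 of 12, without all moving. Il2ra, the high-affinity interleukin 2 receptor chain of regulatory and activated T cells, had 46.1 to 102 normalized counts (median 72.4) in untreated and 109 to 202 (median 161) in combination tumors without overlap (log2 fold change 1.16 ± 0.17, adjusted p = 9.7e-05). Tnfrsf18, which encodes GITR, rose on the log2 scale by 0.51 ± 0.09 and Lrrc32, which holds latent TGF-β on the cell surface, by 0.52 ± 0.12. Il10 was the 1 member that fell (log2 fold change -0.87 ± 0.19, adjusted p = 0.0014), and Ikzf2 and Ikzf4 did not pass (-0.13 ± 0.13 and 0.37 ± 0.16). Of 18 natural killer and cytotoxic genes 9 rose. Klrk1, which encodes NKG2D, had 128 to 215 normalized counts (median 153) in untreated and 208 to 320.0 (median 263) in combination tumors (log2 fold change 0.77 ± 0.11, adjusted p = 8.7e-05), and Ccl5, a chemokine of activated T cells, had 372 to 1266 normalized counts (median 527) in untreated and 717 to 4022 (median 2391) in combination tumors (log2 fold change 1.80 ± 0.34, adjusted p = 0.00051). Klrc1 and Cst7 rose on the log2 scale by 0.95 ± 0.19 and 0.97 ± 0.23. Prf1, which encodes perforin, did not pass (log2 fold change 0.43 ± 0.23, adjusted p = 0.15), nor did Gzmc (-0.34 ± 0.29). Of 14 checkpoint genes 8 rose, among them Entpd1 on the log2 scale by 0.84 ± 0.13, Cd274, which encodes PD-L1, by 0.76 ± 0.16, Ctla4 by 0.59 ± 0.13 and Havcr2, which encodes TIM-3, by 0.41 ± 0.09. The ecto-nucleotidase gene Nt5e (-0.06 ± 0.11) and Pdcd1lg2, which encodes PD-L2 (log2 fold change 0.59 ± 0.25, adjusted p = 0.065), did not pass.

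B cell genes were higher in 9 of 12 cases, although their levels were low. Blk, a kinase of the B cell receptor, had 6.11 to 17.8 normalized counts (median 11.3) in untreated and 28.6 to 46.9 (median 33.2) in combination tumors (log2 fold change 1.56 ± 0.21, adjusted p = 5.4e-05), and Cd22, an inhibitory coreceptor, had 49.7 to 132 normalized counts (median 85.3) in untreated and 157 to 275 (median 261) in combination tumors (log2 fold change 1.45 ± 0.20, adjusted p = 5.4e-05). Both were without overlap, as was Cd37, a tetraspanin of mature B cells (log2 fold change 1.10 ± 0.14). The defining markers were less separated. Cd79a had 16.1 to 96.3 normalized counts (median 29.7) in untreated and 52.4 to 289 (median 119) in combination tumors (log2 fold change 1.6 ± 0.38, adjusted p = 0.0031), and Ms4a1, which encodes CD20, had 9.02 to 34.6 normalized counts (median 16.7) in untreated and 14.9 to 91.5 (median 29.9) in combination tumors and did not pass (log2 fold change 0.90 ± 0.39, adjusted p = 0.069). Combination tumor 7 was far above the others in Ms4a1, at 91.5. Ralgps2, a signaling gene that is not specific to B cells, was the 1 member that fell (log2 fold change -0.76 ± 0.11, adjusted p = 5.9e-05), and Bank1 did not pass. Ccr6, the receptor that guides B and TH17 cells to CCL20, did not pass the filter, with 0.955 to 7.79 normalized counts (median 2.62) in untreated and 3.79 to 16.3 (median 13.7) in combination tumors, and was higher without it (log2 fold change 1.57 ± 0.37, adjusted p = 0.0041). Its ligand Ccl20 fell, from 16.9 to 4.44 in median normalized counts (log2 fold change -2.01 ± 0.50, adjusted p = 0.0043), and both were chosen after their values were seen. The number of B cell genes that rose lay between 5 and 10 over the settings, and the filter removed 4 of the 16 members.

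Of the lymphoid lists, the immunoglobulin constant genes had the largest median change. Of 11 immunoglobulin constant genes 9 rose, with a median log2 fold change of 1.97, and of 14 plasma cell genes 11 rose. Igha, the IgA heavy chain gene, had 1464 to 13170.0 normalized counts (median 6328) in untreated and 8845 to 81521 (median 27234) in combination tumors (log2 fold change 2.53 ± 0.52, adjusted p = 0.00097), and Igkc, the kappa light chain gene, had 2745 to 21275 normalized counts (median 7629.8) in untreated and 13335 to 78823 (median 32036) in combination tumors (log2 fold change 2.08 ± 0.46, adjusted p = 0.0018). Jchain, which joins polymeric IgA and IgM, had 567 to 4497 normalized counts (median 1979) in untreated and 3540.2 to 20350.0 (median 8180.1) in combination tumors (log2 fold change 2.26 ± 0.46, adjusted p = 0.00097). The groups overlapped in all of them, and the range within untreated tumors was wide. Ighg2b and the lambda genes Iglc1 and Iglc2 rose by 1.98 ± 0.49, 2.25 ± 0.60 and 1.97 ± 0.41, whereas Ighm did not pass (log2 fold change 1.13 ± 0.46, adjusted p = 0.056), nor did Iglc3 (1.09 ± 0.51). The variable segments moved likewise. Of 136 tested 47 rose, with a median of 1.67, and their 196 genes summed to 3145 to 30860.0 (median 11730.0) normalized counts in untreated and 15350.0 to 116700.0 (median 41440.0) in combination tumors. Near-identical segments could share reads, so single segments are uncertain. Of the other plasma cell genes, Tent5c, which stabilizes immunoglobulin transcripts, had 224 to 474 normalized counts (median 302) in untreated and 499 to 1201 (median 689.7) in combination tumors without overlap (log2 fold change 1.22 ± 0.17, adjusted p = 5.9e-05), Irf4, the factor of plasma cells and activated T cells, rose by 1.7 ± 0.27, Slamf7 by 1.36 ± 0.20 and Eaf2 by 1.46 ± 0.28. Xbp1 and Creld2, genes of the secretory pathway that all secreting cells use, did not pass (log2 fold change 0.20 ± 0.08 and 0.03 ± 0.10). Sdc1, a plasma cell marker that carcinoma cells make in far larger amounts, fell (log2 fold change -0.42 ± 0.08, adjusted p = 0.00062) and was chosen after its values were seen.

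Of 12 germinal center and TFH genes 5 rose, among them Icos, the costimulator of helper T cells, on the log2 scale by 0.85 ± 0.18, Cd200 by 0.77 ± 0.12 and Pdcd1 by 0.71 ± 0.21, the last not in every setting. S1pr2, which confines cells to germinal centers, had 630.4 to 819 normalized counts (median 729) in untreated and 849.8 to 1063 (median 888) in combination tumors without overlap but changed little in size (log2 fold change 0.34 ± 0.06, adjusted p = 0.00032), and other cell types also make it. Bcl6 and Maf, the factors of TFH cells, did not pass (log2 fold change 0.05 ± 0.09 and 0.17 ± 0.09). Cxcl13, the B cell attracting chemokine, had 12.4 to 55.7 normalized counts (median 29.1) in untreated and 4.27 to 35.6 (median 13.8) in combination tumors and did not pass (log2 fold change -0.96 ± 0.42, adjusted p = 0.073). The filter removed 5 of the 17 members.

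Macrophage genes rose in 10 of 20 cases, and 2 of the 20 were above without overlap, against 4.64% of all genes tested. Nos2 (ENSMUSG00000020826, chromosome 11, 78920787 to 78960254), the inducible nitric oxide synthase, had 763 to 1529.5 normalized counts (median 1012) in untreated and 2341 to 5678 (median 4084) in combination tumors (log2 fold change 1.9 ± 0.19, adjusted p = 6.6e-06). Gpnmb, a glycoprotein of lipid-laden macrophages, had 263 to 707 normalized counts (median 519.6) in untreated and 1272 to 4434 (median 2006) in combination tumors (log2 fold change 2.16 ± 0.24, adjusted p = 1.3e-05). Neither overlapped between the groups. Mertk, a receptor for uptake of apoptotic cells, rose on the log2 scale by 0.93 ± 0.17, and Cd68, a lysosomal protein, by 0.85 ± 0.13. The complement C1q genes, which mark tissue macrophages as a whole, did not pass, with C1qa at 3863 to 7671 normalized counts (median 5094) in untreated and 4808 to 7335 (median 6550.1) in combination tumors (log2 fold change 0.21 ± 0.13, adjusted p = 0.19) and C1qc at 0.29 ± 0.12. Spp1, the osteopontin gene, which tumor cells and macrophages both make, was the 1 member that fell, with 144530.0 to 251700.0 normalized counts (median 173500.0) in untreated and 72452 to 126190.0 (median 116090.0) in combination tumors and no overlap (log2 fold change -0.82 ± 0.17, adjusted p = 0.0011). As it was by far the most abundant of the list, the summed level of the list was lower in combination tumors, at 193200.0 to 235100.0 against 219900.0 to 342000.0, while 10 of its members rose. Spp1 was named after its values were seen.

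Of 17 dendritic cell genes 6 rose. Zbtb46, the factor of conventional dendritic cells, had 96.5 to 210.1 normalized counts (median 165) in untreated and 210.3 to 376 (median 312) in combination tumors without overlap (log2 fold change 0.92 ± 0.15, adjusted p = 0.00019). Wdfy4, needed for cross-presentation, rose on the log2 scale by 0.53 ± 0.11, Itgax, which encodes CD11c, by 0.49 ± 0.13, and Clec9a, a receptor of cross-presenting cells, by 0.84 ± 0.26, the last not in every setting. Fscn1 and Cacnb3 did not pass (log2 fold change 0.13 ± 0.05 and 0.14 ± 0.08), and tumor cells also make Fscn1. Neutrophil genes rose in 3 of 14 cases, near the 19.6% over all genes. They were Mmp9 (log2 fold change 1.52 ± 0.29, adjusted p = 0.00056), Mmp8 (log2 fold change 1.10 ± 0.30, adjusted p = 0.0065) and Csf3r, the G-CSF receptor (log2 fold change 0.63 ± 0.15, adjusted p = 0.0036). S100a8 and S100a9, the abundant calprotectin genes, did not pass (log2 fold change 0.68 ± 0.39 and 0.71 ± 0.39), and the highest values of both were in combination tumors 7 and 8, which were also the highest for red blood cell genes. Among 8 neutrophil chemokine and inflammatory cytokine genes, Il1a rose (log2 fold change 0.67 ± 0.22, adjusted p = 0.021), not in every setting, and Il1b and Ppbp did not pass (-0.06 ± 0.20 and 0.52 ± 0.36). Of 9 eosinophil genes 2 rose (4 with DESeq2), the ribonuclease gene Ear2 (log2 fold change 1.44 ± 0.30, adjusted p = 0.0012), which has close copies, and the eotaxin gene Ccl11 (log2 fold change 0.89 ± 0.24, adjusted p = 0.0061), while Prg2 and Ear1 did not pass (0.85 ± 0.39 and 0.83 ± 0.39). Il5, the eosinophil growth factor, was below 7 normalized counts in every tumor, did not pass the filter and was higher without it (log2 fold change 1.21 ± 0.38, adjusted p = 0.023). Il5 was chosen after its values were seen.

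Mast cell genes were lower in combination tumors, 8 of 12, and 2 were higher. The mucosal proteases fell the most. Mcpt1 (ENSMUSG00000022227, chromosome 14, 56017971 to 56020384) had 313 to 885 normalized counts (median 415) in untreated and 9.23 to 112 (median 21.4) in combination tumors (log2 fold change -3.86 ± 0.42, adjusted p = 1.3e-05), and Mcpt2 had 216 to 678 normalized counts (median 297) in untreated and 2.93 to 85.3 (median 14.7) in combination tumors (log2 fold change -4.17 ± 0.57, adjusted p = 5.5e-05). The connective tissue protease Mcpt4 had 138 to 376 normalized counts (median 187) in untreated and 30.8 to 139 (median 48.0) in combination tumors (log2 fold change -1.83 ± 0.32, adjusted p = 0.00034). The tryptases Tpsb2 and Tpsab1 fell (log2 fold change -2.29 ± 0.31, adjusted p = 5.1e-05 and -2.63 ± 0.43, adjusted p = 0.0002). Cpa3, the mast cell carboxypeptidase, had 66.2 to 182 normalized counts (median 106) in untreated and 21.7 to 78.4 (median 36.5) in combination tumors (log2 fold change -1.49 ± 0.29, adjusted p = 0.00069), and Fcer1a, the IgE receptor chain shared with basophils, had 10.8 to 27.8 normalized counts (median 16.3) in untreated and 2.88 to 10.4 (median 4.97) in combination tumors (log2 fold change -1.61 ± 0.27, adjusted p = 0.00024). Mcpt1, Mcpt2, both tryptases and Fcer1a did not overlap between the groups, and untreated tumor 4 was the highest for both mucosal proteases. Kit, the receptor for stem cell factor, and Gata2, both made in other cells as well, rose instead, Kit with 100.5 to 131 normalized counts (median 112) in untreated and 134 to 162 (median 149.8) in combination tumors (log2 fold change 0.39 ± 0.08, adjusted p = 0.00076) and Gata2 by 0.57 ± 0.13, the latter chosen after its values were seen. Hdc, the histidine decarboxylase of mast cells and basophils, and Mcpt8, a basophil protease, did not pass (log2 fold change -0.20 ± 0.30 and -0.83 ± 0.36). Between 4 and 9 members fell over the settings. Close family members could share reads among Mcpt1 and Mcpt2.

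Interferon-related genes were read in separate lists for the interferon types. Of 26 antiviral genes driven mainly by type I interferon 4 rose, a share of which the background is 19.6%, and the median log2 fold change was 0.081. The 4 included the signal transducer Stat2 (log2 fold change 0.24 ± 0.07, adjusted p = 0.0096), Zbp1, a sensor of Z-form nucleic acids (log2 fold change 0.41 ± 0.13, adjusted p = 0.018), and Oasl2 (log2 fold change 0.25 ± 0.09, adjusted p = 0.044). Zbp1 and Oasl2 were not called in every setting. Between 2 and 6 of the 26 rose over the settings, 2 with muscle and keratinocyte levels as covariates (median -0.0213) and 6 without combination tumors 6 and 7 (median 0.172). Ifit3 and Bst2 did not pass (log2 fold change 0.10 ± 0.23 and 0.20 ± 0.15). Of 24 genes induced mainly by interferon-γ, 17 rose with a median of 0.47, and between 12 and 18 rose over the settings. Gbp5, a guanylate-binding protein of the cell-autonomous defense, had 524 to 971 normalized counts (median 831) in untreated and 953 to 2390.0 (median 1749) in combination tumors (log2 fold change 1.10 ± 0.18, adjusted p = 0.0002). Cxcl9, the chemokine that draws CXCR3-bearing T cells, had 2581 to 6062 normalized counts (median 3134) in untreated and 4497 to 9135 (median 6786) in combination tumors (log2 fold change 0.91 ± 0.17, adjusted p = 0.00061). The highest untreated tumor in Cxcl9, number 2 at 6062, reached into the combination group. Irf8 and Gbp8 rose on the log2 scale by 0.64 ± 0.12 and 0.80 ± 0.16, and Tgtp1 and Tgtp2, near-identical GTPase genes, did not pass (-0.10 ± 0.16 and -0.13 ± 0.13).

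The stretch before the Gbp5 start is shown because it holds 3 of the motif classes searched within 250 bases. In the 250 bases before the RefSeq start (GRCm38.p6, plus strand, chr3:142496684-142496933), capitals mark a gamma-activated motif 245 bases before the start, an interferon response motif 165 bases before, an NF-kB motif 77 bases before and a second gamma-activated motif 52 bases before.
Gbp5: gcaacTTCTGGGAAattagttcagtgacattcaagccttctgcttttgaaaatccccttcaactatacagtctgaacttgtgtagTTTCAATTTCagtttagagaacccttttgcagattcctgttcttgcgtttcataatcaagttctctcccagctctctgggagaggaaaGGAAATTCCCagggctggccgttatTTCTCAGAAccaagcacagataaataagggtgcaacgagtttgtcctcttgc
The gamma-activated motif (TTCNNNGAA), the interferon response motif and the NF-kB motif were searched on both strands. Over promoters from 250 bases before to 50 after the start, the gamma-activated motif was in 7.96% of 741 promoters of genes called higher, 6.25% of 112 of genes called lower and 6.94% of 14930 of all genes tested. The interferon response motif was in 2.83%, 1.79% and 3.20%, and the NF-kB motif in 0.675%, 2.68% and 0.462%, which for the called genes are 5 and 3 promoters. RefSeq promoters were matched by symbol for 569 of 870 symbols called higher, 92 of 159 called lower and 11732 of 16720 tested.

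MHC class II genes rose in 9 of 12 cases, and between 5 and 10 rose over the settings, the fewest in libraries of at least 14000000 recovered reads. H2-Oa, a modulator of peptide loading in B cells, rose the most (log2 fold change 1.15 ± 0.23, adjusted p = 0.001). Ciita, the class II transactivator, had 539 to 935 normalized counts (median 810.0) in untreated and 856 to 1504 (median 1318) in combination tumors (log2 fold change 0.61 ± 0.14, adjusted p = 0.0024), H2-Aa had 9147 to 18740.0 normalized counts (median 10204) in untreated and 12725 to 22134 (median 18616) in combination tumors (log2 fold change 0.64 ± 0.15, adjusted p = 0.003), and Ctss, the protease that trims the invariant chain, rose by 0.64 ± 0.15. H2-DMa and H2-DMb1 did not pass (log2 fold change 0.33 ± 0.13 and 0.15 ± 0.12). Of 20 class I and immunoproteasome genes 8 rose, by less. H2-Q7 and H2-Q6, class Ib genes with close copies, rose without overlap (0.48 ± 0.09, adjusted p = 0.00069 and 0.52 ± 0.12, adjusted p = 0.0024), Tapbp, the tapasin gene, rose on the log2 scale by 0.45 ± 0.11, and Nlrc5, the class I transactivator, by 0.33 ± 0.08. B2m and H2-D1, the most abundant members, did not pass (log2 fold change 0.12 ± 0.11, adjusted p = 0.4 and 0.11 ± 0.11, adjusted p = 0.43).

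The components of the pathways that the agents address came next. Ltbr, the receptor bound by the antibody, had 1121 to 1709.7 normalized counts (median 1356) in untreated and 1138 to 1367 (median 1216) in combination tumors and did not pass (log2 fold change -0.15 ± 0.07, adjusted p = 0.11). Of 16 noncanonical NF-κB genes 9 rose. Birc3, which encodes an inhibitor of the pathway that NF-κB induces, had 281 to 387 normalized counts (median 335) in untreated and 449.7 to 649 (median 516) in combination tumors (log2 fold change 0.65 ± 0.08, adjusted p = 1.8e-05), and Birc2, its close relative, had 458 to 500.0 normalized counts (median 473) in untreated and 508 to 614 (median 566) in combination tumors (log2 fold change 0.24 ± 0.04, adjusted p = 0.00046). The groups did not overlap in either, although Birc2 changed by less than 1.5-fold. Cd40, the receptor of antigen-presenting cells, rose on the log2 scale by 0.80 ± 0.13, and Tnfrsf11a, which encodes RANK, by 0.62 ± 0.13. Nfkb2, the subunit gene that noncanonical signaling processes, did not pass (log2 fold change 0.02 ± 0.09, adjusted p = 0.91). Of 14 STING pathway genes 6 rose and 2 fell, and between 1 and 3 fell over the settings. Ikbke, the kinase related to TBK1, had 449 to 620.0 normalized counts (median 513) in untreated and 646 to 1031 (median 711) in combination tumors (log2 fold change 0.55 ± 0.10, adjusted p = 0.00054), Samhd1, which limits cytosolic DNA, rose by 0.60 ± 0.11, and Ifnar2, a chain of the type I interferon receptor, by 0.40 ± 0.06. Lrrc8a, the channel subunit that carries cyclic dinucleotides, fell without overlap (log2 fold change -0.54 ± 0.06, adjusted p = 1.1e-05), and Ifnar1 and Ifi205 did not pass (0.11 ± 0.05 and 0.06 ± 0.15).

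In the chemokine axis of lymphoid tissue, receptors and stromal ligands rose in 4 of 10 cases and 1 fell, Ccl20 (-2.01 ± 0.50). Cxcl12, the stromal ligand, had 1059.5 to 1824 normalized counts (median 1530.3) in untreated and 1975 to 4473 (median 2925) in combination tumors without overlap (log2 fold change 1.04 ± 0.18, adjusted p = 0.00026), and its receptor Cxcr4 rose by 0.82 ± 0.12. Cxcr3, the receptor for CXCL9, had 23.1 to 53.1 normalized counts (median 36.4) in untreated and 61.8 to 118 (median 90.8) in combination tumors, also without overlap (log2 fold change 1.26 ± 0.17, adjusted p = 5.4e-05). Ccr7, the receptor for CCL21, did not pass (log2 fold change 0.32 ± 0.16, adjusted p = 0.11), nor did Cxcl13 (-0.96 ± 0.42), which fell without untreated tumor 2 or 7 or combination tumor 7.

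Epithelial keratins of the tumor cells were lower. Krt18 (ENSMUSG00000023043, chromosome 15, 102028180 to 102032027) had 4832 to 10794 normalized counts (median 6788) in untreated and 1692 to 3683 (median 2702) in combination tumors (log2 fold change -1.46 ± 0.18, adjusted p = 3e-05), and its partner Krt8 had 6998 to 12368 normalized counts (median 9219) in untreated and 3372 to 6218 (median 5123) in combination tumors (log2 fold change -0.92 ± 0.14, adjusted p = 0.00012). Neither overlapped between the groups. Krt7, a ductal keratin, and Krt19 fell (log2 fold change -1.27 ± 0.26, adjusted p = 0.0009 and -0.67 ± 0.17, adjusted p = 0.0052). Over the whole list of 25 epithelial genes, 6 fell and 2 rose, against 23.6% and 19.6% of all genes, and the median was -0.049. The sign of this median was not stable, since it ran from -0.216 to 0.431 over the settings, the latter without combination tumors 6 and 7, while 4 to 7 members fell. Dsp, the desmoplakin gene, ran from 452 to 3787 normalized counts (median 1288) in untreated and 294 to 4923 (median 1756) in combination tumors, and its highest value in each group was in the tumor with the highest keratinocyte sum. The summed level of its 28 members, which Krt8 and Krt18 dominate, was 26260.0 to 37880.0 in untreated and 9621 to 24150.0 in combination tumors, without overlap.

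Of 28 cell cycle genes 2 rose and 1 fell, with a median log2 fold change of 0.024. In libraries of at least 14000000 recovered reads 6 rose and the median was 0.136, and 4 rose without untreated tumor 1 or without combination tumor 6. The number that fell was 2 without untreated tumor 7 or 8 or combination tumor 1 or 2, and the median was below 0 without untreated tumor 2 (-0.0206) or combination tumor 2 (-0.0258). Mki67 had 1792 to 3081 normalized counts (median 2501) in untreated and 2062 to 3764 (median 2770.2) in combination tumors (log2 fold change 0.19 ± 0.12, adjusted p = 0.21), and Top2a did not pass (log2 fold change 0.03 ± 0.09). The 3 that passed were regulators of entry into the cycle. Ccne1 and E2f1, which encode cyclin E1 and a factor of the S phase program, rose without overlap (0.60 ± 0.09, adjusted p = 7.8e-05 and 0.41 ± 0.06, adjusted p = 0.00014), and Ccnd1, the cyclin D1 gene, fell from 12364 to 8746 in median normalized counts (log2 fold change -0.44 ± 0.07, adjusted p = 0.00024). Of 14 p53 target genes 5 rose and 4 fell, and over the settings 4 to 6 rose and 3 or 4 fell. Pmaip1 and Bbc3, which encode the death proteins NOXA and PUMA, fell without overlap (-0.84 ± 0.13, adjusted p = 0.00015 and -0.64 ± 0.11, adjusted p = 0.00036), Phlda3 fell (log2 fold change -0.42 ± 0.08, adjusted p = 0.00089), and Sesn1 rose by 0.46 ± 0.09. Mdm2 and Ccng1 did not pass (log2 fold change 0.13 ± 0.07 and 0.24 ± 0.19).

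Genes of cellular stress were lower in combination tumors. Of 17 genes of the unfolded protein and integrated stress responses 10 fell, with a median of -0.37 and between 8 and 11 falling over the settings. The median ran from -0.41 to -0.158 over the settings. It was -0.168 with DESeq2, which tested 15 of these genes. Asns, asparagine synthetase, had 1655 to 3643 normalized counts (median 2310.4) in untreated and 798 to 1378 (median 1046) in combination tumors (log2 fold change -1.17 ± 0.15, adjusted p = 3.8e-05). Trib3, a pseudokinase induced by the factor ATF4, had 1249 to 2776 normalized counts (median 1937) in untreated and 589.7 to 1196 (median 802) in combination tumors (log2 fold change -1.19 ± 0.17, adjusted p = 6.2e-05). No values overlapped in either, nor in Atf4 itself (log2 fold change -0.55 ± 0.10, adjusted p = 0.00058) or the chaperone gene Dnajb9 (-0.40 ± 0.06). Hsp90b1 and Pdia4, chaperones of the endoplasmic reticulum, did not pass (log2 fold change -0.12 ± 0.06 and -0.15 ± 0.07). With limma 0 of these 17 genes rose, also at an unadjusted p under 0.05 and with edgeR and DESeq2. Of 23 glycolysis and hypoxia genes 7 fell and 4 rose. Pfkfb3, the activator of glycolytic flux, had 602 to 1215 normalized counts (median 914) in untreated and 1344 to 2111 (median 1680.1) in combination tumors without overlap (log2 fold change 0.96 ± 0.13, adjusted p = 5.5e-05), and the lactate exporter gene Slc16a3 rose by 0.46 ± 0.10. Eno1, a glycolytic enzyme, and Vegfa, the vascular growth factor, fell (log2 fold change -0.44 ± 0.10, adjusted p = 0.0029 and -0.46 ± 0.11, adjusted p = 0.0032), and Aldoa and Pkm did not pass (0.18 ± 0.17 and -0.15 ± 0.08). Muscle also makes glycolytic enzymes in quantity. Without combination tumors 6 and 7, 3 of the 23 fell, and 2 fell with muscle and keratinocyte levels as covariates. The number that fell was 4 without untreated tumor 1, after rescaling by TMM or without the filter on low values, 3 in libraries of at least 14000000 recovered reads and 11 without combination tumor 8.

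Cholesterol synthesis genes fell in 12 of 19 cases with a median of -0.56, which ran from -0.667 to -0.362 over the settings. Sqle, squalene epoxidase, had 501 to 1237 normalized counts (median 843) in untreated and 204 to 766 (median 388) in combination tumors (log2 fold change -1.0 ± 0.25, adjusted p = 0.0039), and Fdft1 and Sc5d, 2 other enzymes, fell (log2 fold change -0.61 ± 0.14, adjusted p = 0.0024 and -0.46 ± 0.12, adjusted p = 0.0054). Each overlapped between the groups. Hmgcs1 did not pass (log2 fold change -0.43 ± 0.22). The number that fell was 6 of 19 without combination tumors 6 and 7, and 5 in libraries of at least 14000000 recovered reads. It was 7 without untreated tumor 1 or 8 or combination tumor 6 or 7. With muscle and keratinocyte levels as covariates it was 9 of 19, and without untreated tumor 2 it was 16 of 19. With limma 0 of the 19 rose, also at an unadjusted p under 0.05 and with edgeR and DESeq2.

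**Figure D5:**
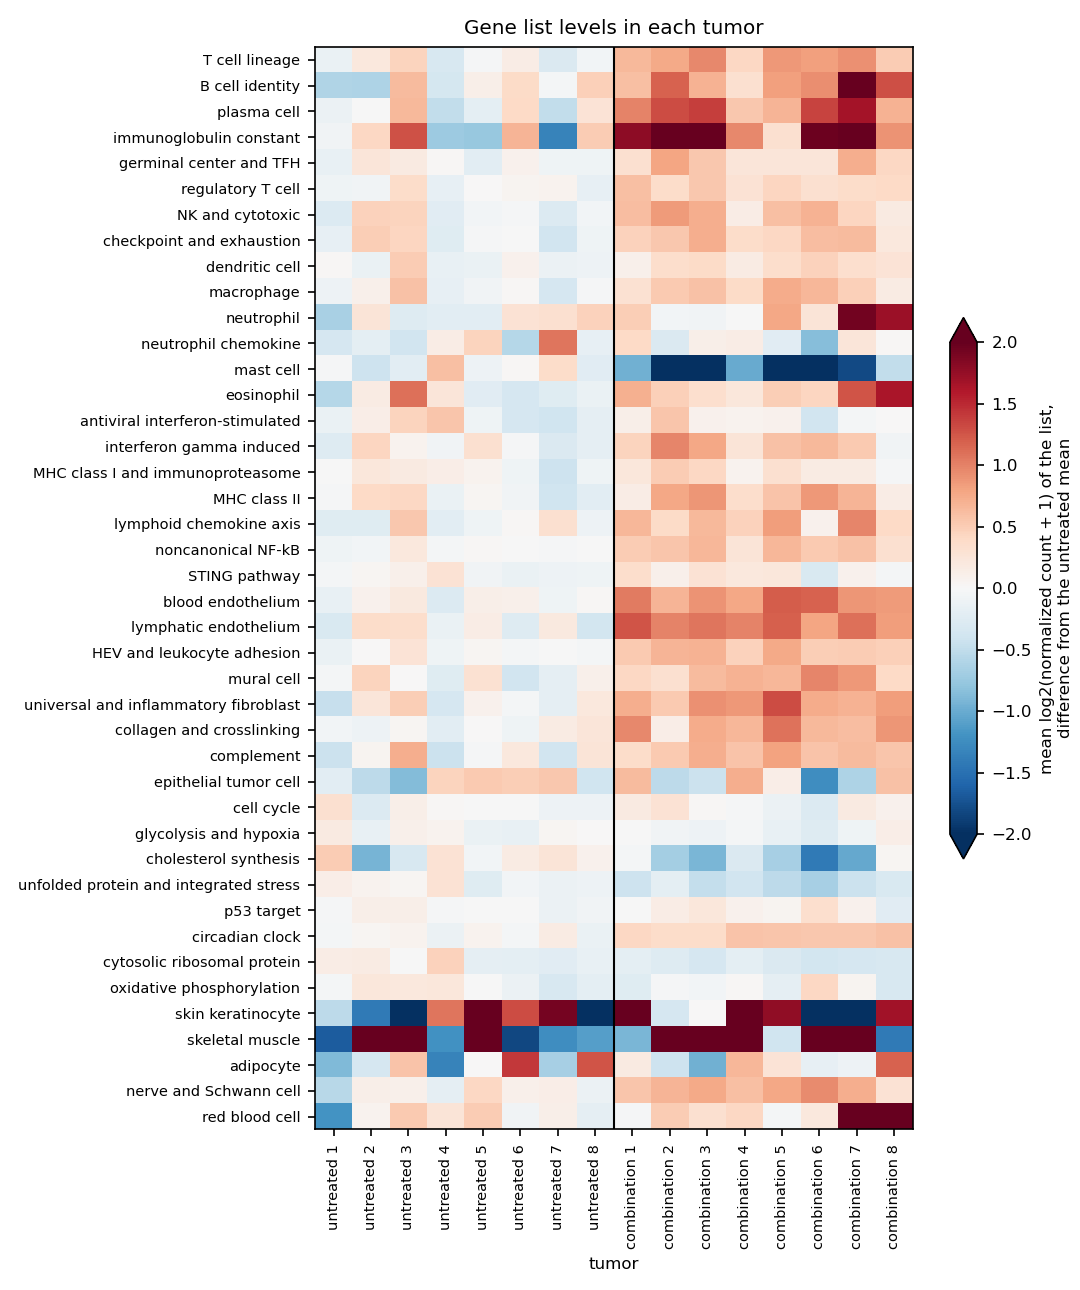
Level of each of 42 gene lists (rows) in each tumor (columns, 8 untreated then 8 combination), as the average log2(normalized count + 1) of the list minus the average in untreated tumors, on a color scale from -2 to 2. Endothelial, lymphatic, T cell and plasma cell lists are higher in every combination tumor than in most untreated tumors, while muscle, keratinocyte and red blood cell lists vary within both groups.

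The circadian clock list held the gene with the smallest adjusted p of the comparison. Of 19 clock genes 12 rose and 3 fell, with between 10 and 12 rising over the settings. Arntl (ENSMUSG00000055116, chromosome 7, 113207465 to 113314126), which encodes BMAL1, the DNA-binding activator of the clock, had 785 to 988 normalized counts (median 875) in untreated and 283 to 404 (median 328) in combination tumors (log2 fold change -1.39 ± 0.08, adjusted p = 1.2e-07). The other genes that fell were its partner Clock (log2 fold change -0.36 ± 0.10, adjusted p = 0.0063) and the D-box repressor Nfil3 (log2 fold change -0.57 ± 0.10, adjusted p = 0.00023), both chosen after their values were seen. The D-box activators rose. Dbp (ENSMUSG00000059824, chromosome 7, 45705088 to 45710203) had 157 to 309 normalized counts (median 251) in untreated and 671 to 1218 (median 849.5) in combination tumors (log2 fold change 1.88 ± 0.16, adjusted p = 3.3e-06), Tef had 732 to 1047 normalized counts (median 903) in untreated and 1599 to 2329 (median 1802) in combination tumors (log2 fold change 1.04 ± 0.09, adjusted p = 4.5e-06), and Hlf had 6.01 to 27.5 normalized counts (median 14.9) in untreated and 64.0 to 127 (median 88.9) in combination tumors (log2 fold change 2.57 ± 0.30, adjusted p = 1.8e-05). In all 3 the lowest combination tumor was above the highest untreated tumor, and for Dbp and Hlf by more than 2-fold. Bhlhe40 and Per1, genes that respond to other signals as well, did not pass (log2 fold change -0.10 ± 0.10 and 0.44 ± 0.24). The hour of collection was not given in the sources used here.

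The letters of 2 clock gene starts that hold a match are shown as context for this pattern. For Dbp only a gamma-activated motif was found. The ROR element, which activating ROR and repressing REV-ERB receptors bind, lies 28 bases after a RefSeq start of Arntl (GRCm38.p6, plus strand, chr7:113207531-113207555), in capitals. An E-box, the motif that BMAL1 and CLOCK bind, lies 138 bases before a RefSeq start of Tef (GRCm38.p6, plus strand, chr15:81811164-81811413), also in capitals.
Arntl: aggcagaaAGTAGGTCAgggacgga
Tef: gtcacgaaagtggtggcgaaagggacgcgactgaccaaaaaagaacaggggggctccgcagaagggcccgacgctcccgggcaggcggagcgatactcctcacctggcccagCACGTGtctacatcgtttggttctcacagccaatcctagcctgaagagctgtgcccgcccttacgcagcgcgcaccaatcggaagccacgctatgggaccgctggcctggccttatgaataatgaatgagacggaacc
Searched on both strands, the E-box CACGTG was in 6.34% of promoters of genes called higher, 3.57% of those called lower and 9.47% of all tested. The D-box TTANNTAA was in 5.26%, 8.04% and 3.68%, and the ROR element NNTAGGTCA in 1.35%, 3.57% and 1.93%. A match of letters does not show binding, and none of these shares was tested.

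Most cytosolic ribosomal protein genes fell by small amounts. Of 81 cytosolic ribosomal protein genes 55 fell and 1 rose, with a median of -0.34, and between 42 and 66 fell over the settings. The average log2 level of the list differed within the untreated group. Relative to the untreated mean it was 0.144, 0.157, -0.0038 and 0.458 in untreated tumors 1 to 4. In untreated tumors 5 to 8 it was -0.181, -0.19, -0.2285 and -0.155. Combination tumors lay at -0.368 to -0.1915, so only untreated tumor 7 was within their range, with untreated tumors 5 and 6 just above it. Rpl15 had 1953 to 2797 normalized counts (median 2159) in untreated and 1432 to 1793 (median 1529.9) in combination tumors without overlap (log2 fold change -0.54 ± 0.07, adjusted p = 2.9e-05), and Rpl35 and Rpl35a fell (log2 fold change -0.52 ± 0.10, adjusted p = 0.00063 and -0.47 ± 0.08, adjusted p = 0.00035), also without overlap. Rps3a1 went the other way, with 2153 to 3059.5 normalized counts (median 2508) in untreated and 3249 to 4778 (median 3801) in combination tumors (log2 fold change 0.59 ± 0.09, adjusted p = 0.00013), and Rplp0 and Rpl21 did not pass (-0.09 ± 0.06 and -0.22 ± 0.10). Ribosomal protein genes have many processed copies that could share their reads. Of 885 processed pseudogenes tested, 326 fell and 22 rose, with a median of -0.27. Oxidative phosphorylation genes encoded in the nucleus mostly did not pass. Of 75 tested 4 fell, by -0.21 to -0.46 on the log2 scale, among them Ndufa12 (-0.46 ± 0.11, adjusted p = 0.0027), Cox6a1 (-0.32 ± 0.08, adjusted p = 0.0041), Atp5d (-0.21 ± 0.07, adjusted p = 0.018) and Ndufs8 (-0.24 ± 0.08, adjusted p = 0.02). Atp5a1 and Atp5b, subunits of the ATP synthase, did not pass (log2 fold change -0.05 ± 0.07 and -0.18 ± 0.07). With limma 0 of the 75 rose, also at an unadjusted p under 0.05, and edgeR and DESeq2, which tested 54, passed 0 in either direction. Without combination tumor 6 alone 10 of the 75 fell, as they did without combination tumors 6 and 7, and the count was 8 without untreated tumor 7 and 7 with muscle and keratinocyte levels as covariates.

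For the leading genes the groups that received 1 agent were read as levels only. Mean levels in normalized counts (± SD, n = 8 each) of Arntl were 879 ± 80.5 without treatment, 790.3 ± 119 after ADU-S100, 491 ± 43.4 after the antibody and 337 ± 47.9 after both agents. In the same order Dbp had 238 ± 59.8, 312 ± 62.8, 625 ± 91.4 and 864 ± 176. Prox1 had 40.1 ± 16.2, 46.9 ± 8.67, 85.6 ± 18.4 and 184 ± 40.5. In these 3 genes the ADU-S100 mean was nearest to the untreated mean and the anti-LTβR mean lay between it and the combination mean. Nos2 had means of 1083 ± 277, 1536 ± 397, 2717 ± 410.0 and 4076 ± 1160.4, and Mcpt1 of 457 ± 180.0, 191 ± 127, 60.2 ± 48.3 and 40.5 ± 37.2. Col3a1 had 39303 ± 7573, 37768 ± 14158, 44758 ± 12613 and 122500.0 ± 45040.0, and Krt18 had 7356 ± 2194, 5339 ± 1072, 4248 ± 434 and 2664 ± 695. The differences among these groups were not tested here.

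Xist (ENSMUSG00000086503, chromosome X, 103460366 to 103483254), the RNA that coats the inactive X chromosome of female cells, was higher in combination tumors although all mice were described as male. It had 0 to 29.2 normalized counts (median 5.10) in untreated and 3.93 to 289.7 (median 99.9) in combination tumors (log2 fold change 3.16 ± 0.83, adjusted p = 0.0058), and 6 of 8 combination tumors exceeded the whole untreated group. Combination tumors 5 and 6 were at 3.93 and 5.77, within the untreated range. Ddx3y, a Y-linked gene, was present in every tumor, with 849 to 1143 normalized counts (median 1022) in untreated and 555 to 1070.1 (median 887) in combination tumors (log2 fold change -0.24 ± 0.11, adjusted p = 0.1). Both genes were chosen after their values were seen, and what gave rise to Xist was not tested.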

How the data were processed

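Bulk RNA of 8 untreated and 8 combination-treated tumors was analysed from the deposited table of 32 tumors. The authors deposited normalized counts (a signal scale), that is, estimated reads of each gene after division by the size factor of its library. From a second table, with 52 libraries, whole reads were recovered (100% of values of up to 1000 reads came out whole, tolerance 0.05), for use only in the edgeR and DESeq2 alternatives and for depth. That table lacks 1468 of the 27525 genes. Its 20 libraries of another experiment and the deposited lists of the authors' own comparisons were not used, and 0 columns stayed unmapped. Trimming with cutadapt 1.9, HISAT2 and StringTie are named in one place and STAR within Partek Flow in another, so the aligner is uncertain. The labels give the build mm39, while the methods name an Ensembl release of the mouse genome without a build. Positions printed here are those of GENCODE on GRCm38, matched by gene identifier, and promoters those of RefSeq on GRCm38.p6. Strand and coordinates may therefore not be those of the authors' alignment.

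Genes were tested with the trend method of limma 3.58.1 in R 4.3.3 after adding a pseudocount of 1 and taking log2, so changes of low genes are understated. Low genes were removed by filterByExpr (edgeR 4.0.16, minimum 10). Adjustment followed Benjamini and Hochberg. Called genes passed 0.05 and 2-fold, the thresholds of the study, which used DESeq2 (1.42.0 here). The scripts were tested on simulated data. Replicates are separate tumors by label, and p-values measure the spread between these tumors. The mouse of each tumor was not known here, so the number of mice in each group could not be told. Motifs were searched in promoters without a test.

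The named genes are the 15 called genes each way with the smallest adjusted p among those without overlap, the 10 each way with the largest change among called genes with a mean of at least 100 (immunoglobulin and T cell receptor variable segments and unnamed models left out), in each list up to 4 members with the smallest adjusted p and up to 2 that did not pass with the highest level, and cell type markers. Genes outside this rule are marked in the text. Some genes that the rule names are not reported here. The comparison, gene lists and alternatives were chosen with earlier results of these data known. The fit was repeated with other pseudocounts, filters, scalings, tests, thresholds and sets of tumors.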

Additional observations from a re-analysis of the deposited data

Results flagged for a closer look

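Of 550 groups of 8 tumors examined over the genes named above, 46 held a highest or lowest tumor whose gap to the nearest other tumor was larger, as a share of the range of its group, than Dixon's 95% critical value for 8 values. In normally distributed values chance alone gives about 1 in 20, but these are normalized counts without logs, which need not be normal. The values below are normalized counts, with the range of the other 7 tumors of the group after each, and none was left out of the comparison. Untreated tumor 2 was the highest of its group for Cxcl9 (6062 against 2581 to 4022), Dcn (7445 against 2844 to 4869.5), H2-Aa (18739.7 against 9147 to 12899.5) and Tgtp1 (16943 against 7129 to 11479.8). Untreated tumor 3 was the highest of its group for Ccr7 (136 against 61.1 to 90.2), Clec9a (49.8 against 14.4 to 31.1) and Cnp (692 against 304 to 429). It was also the highest for Ear2 (265 against 43.8 to 74.9), Ifnar2 (886 against 655 to 763), Lyve1 (265 against 65.1 to 158) and Pdcd1lg2 (353 against 96.6 to 205). It was also the highest for Pecam1 (817 against 554 to 678), Slc16a3 (1465 against 885 to 1084), Tent5c (474 against 224 to 321) and Vcam1 (1778 against 844 to 1254). Untreated tumor 4 was the highest of its group for Atf4 (8374 against 4942 to 6424), Mcpt1 (885 against 313 to 463), Mcpt2 (677 against 216 to 371) and Rpl35a (869.9 against 509 to 632). It was also the highest for Tpsb2 (450.0 against 174 to 299.6). Untreated tumor 7 was the highest of its group for Cacnb3 (818 against 601 to 699.8) and Ccl20 (46.9 against 4.45 to 23.1). Untreated tumor 7 was the lowest of its group for H2-Q6 (3216 against 4975 to 5788) and H2-Q7 (6668 against 8839.9 to 10438). Untreated tumor 8 was the highest of its group for Psca (937 against 90.6 to 145) and Xist (29.2 against 0 to 12.2). Combination tumor 1 was the highest of its group for Tnfrsf18 (196 against 146 to 166). Combination tumor 2 was the highest of its group for Oasl2 (5446 against 3399 to 4254). Combination tumor 3 was the highest of its group for S100b (159 against 72.7 to 106). Combination tumor 4 was the highest of its group for Il10 (25.8 against 15 to 20.1). Combination tumor 5 was the highest of its group for Ecscr (605 against 346 to 442), Gpnmb (4434 against 1272 to 2701) and Mfap4 (6886 against 1353 to 3825). Combination tumor 5 was the lowest of its group for Ikzf2 (102 against 153 to 192). Combination tumor 6 was the highest of its group for Actc1 (1946 against 9.47 to 386), Myh3 (813 against 7.44 to 370.1), Ndufa12 (387 against 233 to 294) and Rgs5 (1733 against 786 to 1127). Combination tumor 6 was the lowest of its group for Nfil3 (365 against 465 to 519). Combination tumor 7 was the highest of its group for Bank1 (68.4 against 26 to 45.9), Ighg2b (28109 against 3898 to 13998) and Ms4a1 (91.5 against 14.9 to 50.2). It was also the highest for Tent5c (1201 against 499 to 778) and Xist (289.7 against 3.93 to 138). Combination tumor 8 was the highest of its group for Arhgap22 (732 against 350.2 to 527) and Krt7 (133 against 43.3 to 84.9).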

How the results depend on the processing

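The counts of genes called depended on how low genes were treated and on the threshold. Without the filter on low values 1299 genes were called higher and 339 lower, and with at least 10 normalized counts in each library 567 and 82. DESeq2 on recovered reads called 1355 higher and 327 lower, over more genes tested. At 1.5-fold in place of 2-fold the counts were 1938 and 557. Pseudocounts of 0.1 and 0.5, rescaling by TMM or to equal totals, edgeR on recovered reads with TMM or RLE, all 4 groups in one fit and libraries of at least 14000000 recovered reads kept the counts within 1.5 times, at 691 to 977 higher and 149 to 202 lower. Leaving out each tumor in turn gave 787 to 1006 called higher and 145 to 207 called lower, and at the adjusted p alone 3029 to 3406 higher and 3529 to 3984 lower. In 2 settings chosen after the data were seen, leaving out combination tumors 6 and 7 gave 760 higher and 173 lower, and adding muscle and keratinocyte levels as covariates 776 and 128. Over 8090 values of the 275 genes named, 0 of the 197 that passed changed direction, while 19 of the 78 that did not pass had the other sign in at least 1 setting.

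Among the named genes, 11 lost their call in at least 1 setting and 31 that had not passed did so in at least 1. Leaving out 1 tumor ended the call of Actc1 (untreated tumors 1, 4, 6 or 8, combination tumors 2, 3, 6 or 7), Myh3 (any untreated tumor but 2, 3 and 5, any combination tumor but 1 and 8), Foxc2 (untreated 4 or 7, combination 5 or 6), Oasl2 (untreated 1, 5, 6, 7 or 8, combination 1, 2, 3 or 5) and Plod2 (11 of the 16 tumors), with adjusted p from 0.051 to 0.094. Without combination tumors 6 and 7 Cd3g (adjusted p = 0.062), Clec9a (0.065) and Pdcd1 (0.051) were also lost, and with the covariates Il1a (0.1) and Zbp1 (0.086). Without untreated tumor 3, C4b (adjusted p = 0.0094), Pdcd1lg2 (0.0069), Ccr7 (0.019) and Ighm (0.026) passed. Without untreated tumor 2 Hmgcs1 passed (0.033), and without untreated tumor 6 Ltbr (-0.19 on the log2 scale, adjusted p = 0.029). Cxcl13 passed as lower without untreated tumor 2 or 7 or combination tumor 7 (adjusted p from 0.032 to 0.047). The causes were not tested.

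No label states that tumors of the same number are paired. Correlations of same-numbered deviations were 0.273, 0.262, 0.321 and 0.223 for numbers 1 to 4. For numbers 5 to 8 they were -0.0155, -0.403, -0.531 and 0.00634, and the mean of all was 0.0171. Of 8 correlations 4 exceeded 0.1, and 0 of 8 untreated tumors correlated best with their own number. Whether tumors of a number share a run or an experiment cannot be told from these values. With the replicate number as a block 865 genes were called higher and 159 lower, and 3159 and 3779 at the adjusted p alone. Counting error is large relative to the level of Glycam1, Ccr6 and Il5, which had under 20 normalized counts in every tumor.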
